A study of Homo sapiens with 12 samples.

Results

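The nuclear-encoded subunits of the mitochondrial respiratory chain were followed in SZ95 cells, an established human sebocyte line (sebocytes are the lipid-making cells of sebaceous glands). Members were the genes whose symbols name a subunit of complexes I to V (NDUFA, NDUFB, NDUFC, NDUFS or NDUFV with a number, SDHA to SDHD, UQCR, COX4 to COX8 and ATP5). Only table entries with 1 gene symbol were used, with the brightest probe set kept for each gene. This gave 80 members of 18417 genes, of which 33 belonged to complex I, 3 to complex II, 8 to complex III, 17 to complex IV and 19 to complex V. The choice used names and mean brightness and no difference between groups.

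The 4 groups of 3 Affymetrix whole-transcript arrays each were compared. Transfection was with scramble or OLR1 siRNA, and 24 h later the cells were left untreated or given 25 µg/ml of UV-PAPC, so that the groups were scramble untreated, scramble UV-PAPC, OLR1 untreated and OLR1 UV-PAPC. PAPC is a phospholipid that carries arachidonic acid, and ultraviolet light oxidises it to a mix of products. The product of OLR1, LOX-1, is a cell-surface receptor that takes up oxidised low-density lipoprotein. All 4 groups were transfected with Lipofectamine 2000 and kept in Sebomed medium. The labels name no untransfected cells, no vehicle and no PAPC that was not oxidised, and no second siRNA against OLR1. Whether replicates came from separate cultures is not stated, so that the spread behind each p-value is that between these arrays and may be technical.

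The respiratory chain passes electrons from NADH through complex I, or from succinate through complex II, to ubiquinone. Complex III then passes them to cytochrome c and complex IV to oxygen, and complex V uses the proton gradient to make ATP. Most subunits are encoded in the nucleus and imported, while a small core of complexes I, III, IV and V is encoded in mitochondrial DNA. Complex II is wholly nuclear. Nuclear respiratory factor 1 (NRF-1) and the ETS-family factor GABP, also called NRF-2, are known activators of these nuclear genes.

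Values are log2 signals, on which a step of 1 is a doubling, and changes were tested for the same gene between groups. Signals of different genes were set side by side without a test, to describe cell markers and to bin genes by brightness. Arrays of 1 group correlated at 0.9959 to 0.9976 over all genes and arrays of different groups at 0.9879 to 0.995. OLR1 itself read 6.18, 5.56 and 5.35 in scramble untreated cells and 6.19, 5.49 and 5.74 in scramble UV-PAPC cells. It read 4.66, 4.38 and 4.48 in OLR1 untreated cells and 4.47, 4.33 and 4.41 in OLR1 UV-PAPC cells. OLR1 was thus 2.45-fold lower with its siRNA over both treatments (limma, adjusted p = 3.25e-06), and all 6 of those arrays lay below all 6 scramble arrays. Epithelial and sebocyte markers had a mean log2 signal of 8.39 to 8.52 over 21 of 22 listed genes on each array. KRT8 read 12.4 to 12.54 and KRT7 11.03 to 11.39, while KRT14 (5.94 to 6.5) and KRT79 (5.55 to 5.83) of the same list were much lower. Genes of sebum synthesis or of mature sebocytes were mixed. SCD (10.31 to 10.63), FADS2 (9.82 to 10.13), SOAT1 (8.14 to 8.73), FASN (7.9 to 8.37) and PPARG (7.78 to 8.46) were brighter. ELOVL3 (3.55 to 3.91), AWAT2 (3.78 to 4.19), AWAT1 (4.89 to 5.28) and MC5R (3.94 to 4.34) were dim. PLIN2 (5.85 to 6.95) and PRDM1 (6.25 to 7.15) lay between. With the OLR1 siRNA 1 of the 21 rose and 3 fell, and with UV-PAPC 1 rose and 4 fell, averaged as below, and their part in the results was not tested. Of all genes, 12.9% rose and 10.2% fell with the OLR1 siRNA, and 14.0% were called in either direction with UV-PAPC. Markers of other cells had lower list means, 4.54 to 4.64 for fibroblasts, 5.3 to 5.45 for melanocytes, 4.94 to 5.07 for leukocytes and 4.94 to 5.14 for endothelium. Some single genes of these lists were bright, namely CD68 (9.21 to 9.92), MITF (8.07 to 8.66) and CDH5 (7.79 to 8.67). With the OLR1 siRNA 1 of 5 melanocyte, 1 of 6 leukocyte and 1 of 5 endothelial markers rose in each treatment and in the average, and in the average 1 melanocyte and 1 of 12 muscle markers fell. Of all genes, 5.29% rose with this siRNA in untreated cells and 7.94% in UV-PAPC cells. With UV-PAPC 1 melanocyte marker fell. In RNA from a bulk culture, a change in the share of cells of 1 kind and a change in RNA per cell cannot be told apart.

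With the OLR1 siRNA, 19 of the 80 subunits rose and 1 fell when both treatments were averaged (6 arrays against 6). The rises were small, from 0.14 to 0.54 on the log2 scale, and lay in all 5 complexes. Of all 18417 genes, 12.9% rose and 10.2% fell by the same test, against 23.8% and 1.25% of the subunits. The median log2 change was 0.097 over the subunits and -0.010 over all genes, and 62 of 80 subunits were above 0. Those shares have to be read against brightness, because bright genes as a whole read higher with the OLR1 siRNA. With all genes ranked by mean signal and cut into 4 equal bins, 28.4% rose in the brightest bin, and 15 of the 55 subunits in that bin did. In the next bin 16.7% of genes rose and 4 of 16 subunits, and in the 2 dimmest bins 4.97% and 1.32% of genes and 0 of 5 and 0 of 4 subunits.

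**Figure D1:**
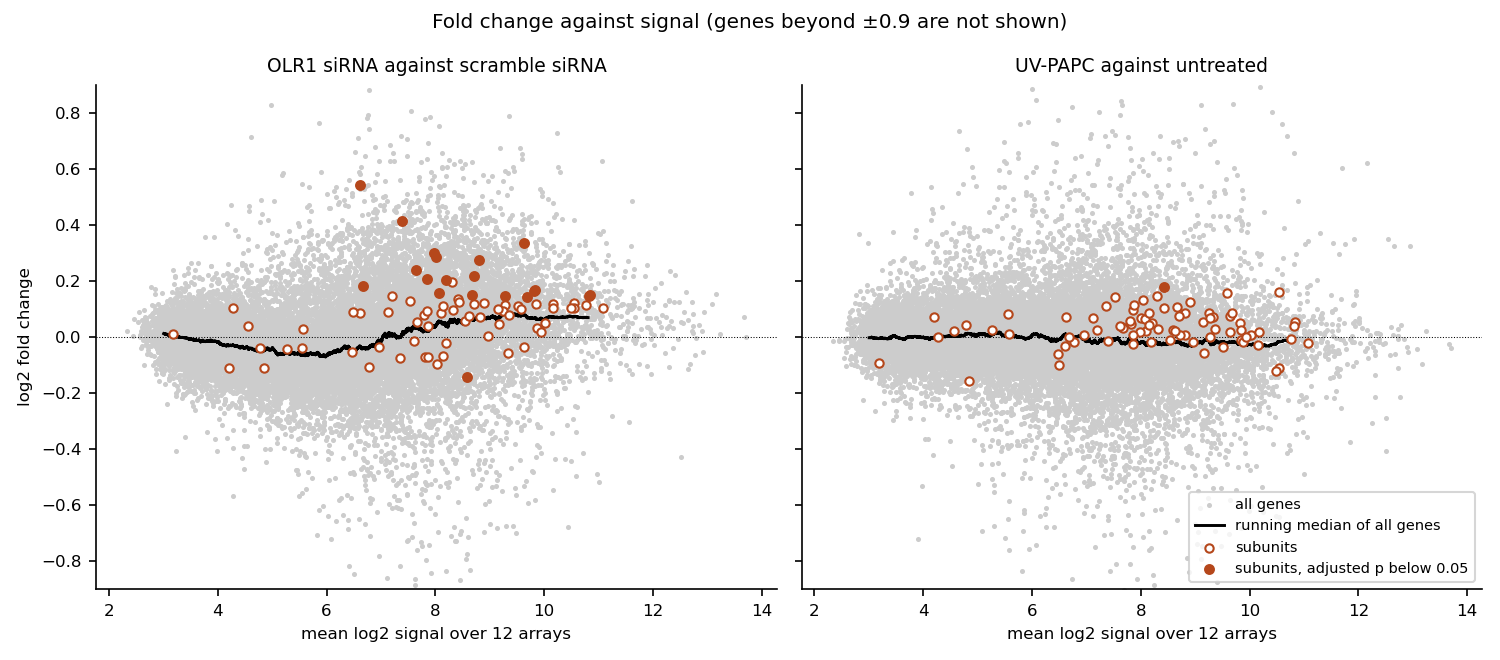
Log2 fold change (vertical axis) against the mean log2 signal over 12 arrays (horizontal axis) for all genes (grey) and the 80 subunits (circles, filled where the adjusted p is below 0.05), averaged over treatments (left) or over siRNAs (right). With the OLR1 siRNA the running median of all genes rises with signal, to a median of 0.061 in the brightest of 4 equal bins, where most subunits lie.

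Rescaling the arrays so that bright genes matched left 8 of the 19 rises. The 4 other scalings tried were centring arrays on their medians, centring them on the median of the brightest bin of genes, a repeated quantile normalization and cyclic loess. The 8 subunits that passed under all 4, which were also called with any 1 of the 12 arrays left out, were COX5B, COX7A2, COX7B and COX7C of complex IV and NDUFA2, NDUFA5, NDUFA9 and NDUFB6 of complex I. They are 10% of the subunits, and 8.36% of all genes rose under every scaling, so that the share is near the background. Without both scramble UV-PAPC replicate 3 and OLR1 UV-PAPC replicate 1, whose bright genes read lowest and highest, COX7B, NDUFA2 and NDUFA9 no longer passed and had log2 changes of 0.49, 0.21 and 0.16.

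The 4 rises of complex IV were in small nuclear subunits that surround its mitochondrially encoded core. COX5B, the zinc-binding subunit on the matrix side, read 7.91, 7.87 and 7.77 in scramble untreated and 7.92, 7.85 and 7.89 in scramble UV-PAPC cells. It read 8.13, 8.04 and 8.14 in OLR1 untreated and 8.24, 8.17 and 8.19 in OLR1 UV-PAPC cells. All 6 OLR1 siRNA arrays lay above all 6 scramble arrays, a rise of 0.29 ± 0.045 (SE; 1.22-fold, adjusted p = 0.00027). COX7A2, the form of subunit VIIa found in most tissues, read 9.51, 9.47 and 9.46 in scramble untreated and 9.32, 9.47 and 9.55 in scramble UV-PAPC cells. With the OLR1 siRNA it read 9.79, 9.67 and 9.67 untreated and 9.97, 9.91 and 9.79 with UV-PAPC. These groups did not overlap either, and the rise was 0.34 ± 0.053 (SE; 1.26-fold, adjusted p = 0.00026).

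COX7C, a subunit with a single membrane span, read 8.68, 8.65 and 8.60 in scramble untreated and 8.57, 8.67 and 8.85 in scramble UV-PAPC cells. It read 8.81, 8.93 and 8.92 in OLR1 untreated and 9.06, 8.96 and 8.98 in OLR1 UV-PAPC cells, and only scramble UV-PAPC replicate 3 reached into the range of the OLR1 siRNA arrays. Its rise was 0.27 ± 0.053 (SE; adjusted p = 0.0014). COX7B, another small membrane subunit, was the member with the highest fold change and with the widest spread. It read 6.70, 6.24 and 6.29 in scramble untreated, 6.75, 6.07 and 6.04 in scramble UV-PAPC, 6.88, 6.70 and 6.70 in OLR1 untreated and 6.97, 6.60 and 7.50 in OLR1 UV-PAPC cells. The groups overlapped, 1 array at 7.50 stood above the rest, and the rise was 0.54 ± 0.14 (SE; 1.46-fold, adjusted p = 0.012).

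The 4 rises of complex I were in accessory subunits, which hold the enzyme together and are not part of its catalytic core. NDUFA5, which sits on the matrix arm, read 7.22, 7.17 and 7.09 in scramble untreated and 7.03, 7.20 and 7.40 in scramble UV-PAPC cells. It read 7.68, 7.75 and 7.49 in OLR1 untreated and 7.77, 7.41 and 7.50 in OLR1 UV-PAPC cells. The 2 siRNAs did not overlap, although scramble UV-PAPC replicate 3 and OLR1 UV-PAPC replicate 2 all but met, and the rise was 0.41 ± 0.075 (SE; 1.33-fold, adjusted p = 0.00087). NDUFB6, an accessory subunit of the membrane arm, read 8.06, 7.75 and 7.77 in scramble untreated, 7.66, 7.82 and 7.94 in scramble UV-PAPC, 8.03, 8.19 and 8.04 in OLR1 untreated and 8.21, 8.17 and 8.15 in OLR1 UV-PAPC cells. A single scramble array, untreated replicate 1, reached the OLR1 siRNA range, and the rise was 0.30 ± 0.064 (SE; adjusted p = 0.0032).

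NDUFA2, which sits near the NADH-oxidising tip of the matrix arm, ranged over the 6 scramble arrays from 7.34 to 7.71 with a median of 7.52. Over the 6 OLR1 siRNA arrays it ranged from 7.68 to 7.87 with a median of 7.75, which overlapped the scramble range at 1 array, and the rise was 0.24 ± 0.062 (SE; adjusted p = 0.012). NDUFA9, a matrix-arm subunit that binds a nicotinamide nucleotide, ranged from 8.48 to 8.70 with a median of 8.62 with the scramble siRNA. It ranged from 8.70 to 8.95 with a median of 8.81 with the OLR1 siRNA. The 2 ranges met at 8.70, and the rise was 0.22 ± 0.055 (SE; adjusted p = 0.010). Over all members, 6 (COX5B, COX7A2, NDUFA5, NDUFA9, NDUFA10 and ATP5F1C) had all 6 OLR1 siRNA arrays above all 6 scramble arrays, which is 7.5% of them against 5.25% of all genes. NDUFA10 and ATP5F1C were among these without passing the test, and were singled out after their values were seen.

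**Figure D2:**
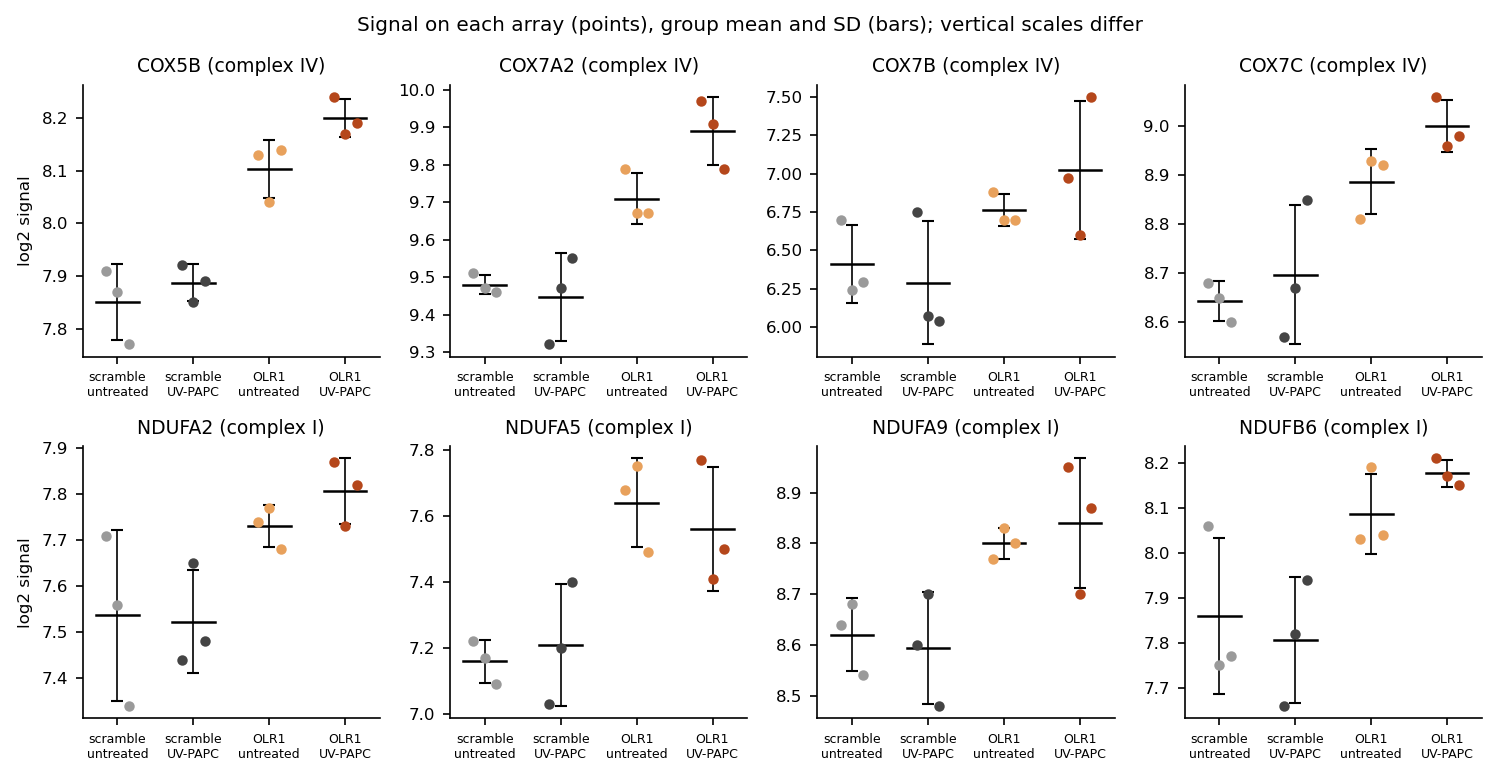
Log2 signal (vertical axes, which differ in scale) on each of 3 arrays per group (points), with the group mean (line) and SD (bars), for the 8 subunits that rose with the OLR1 siRNA under every scaling and with any 1 array left out. COX5B and COX7A2 show no overlap between scramble and OLR1 siRNA arrays, whereas COX7B spreads from 6.60 to 7.50 in OLR1 UV-PAPC cells.

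The stretch before the start site (RefSeq, GRCh38.p14) is shown for 4 of these 8 genes, COX5B with both motifs and 3 with neither. It is also shown for SDHD and COX6A1, which hold both and rose, though not under every scaling. The motifs searched were the NRF-1 core GCATGCG, the ETS core CCGGAAG and the CCAAT box CCAAT, on both strands of the 250 bases before each start. Each line gives the 180 bases that end just before the start, 5′ to 3′ on the gene's strand, with matches to the NRF-1 and ETS cores in capitals. They lie at chr2:97645882-97646061 (COX5B, plus strand), chrX:77899288-77899467 (COX7B, plus strand), chr5:86617761-86617940 (COX7C, plus strand) and chr9:32573160-32573339 (NDUFB6, minus strand). Those of SDHD and COX6A1 lie at chr11:112086693-112086872 and chr12:120437933-120438112, both on the plus strand.
COX5B: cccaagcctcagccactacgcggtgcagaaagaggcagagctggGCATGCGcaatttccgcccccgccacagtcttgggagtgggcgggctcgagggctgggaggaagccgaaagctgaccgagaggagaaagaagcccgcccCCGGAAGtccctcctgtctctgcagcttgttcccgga
COX7B: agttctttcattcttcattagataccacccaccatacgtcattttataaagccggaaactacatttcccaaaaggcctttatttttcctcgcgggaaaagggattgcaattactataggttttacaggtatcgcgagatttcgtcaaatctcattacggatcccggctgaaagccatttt
COX7C: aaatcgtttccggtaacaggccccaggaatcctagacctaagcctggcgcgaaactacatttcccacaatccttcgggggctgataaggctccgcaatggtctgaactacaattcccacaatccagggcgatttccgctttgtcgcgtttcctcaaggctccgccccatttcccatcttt
NDUFB6: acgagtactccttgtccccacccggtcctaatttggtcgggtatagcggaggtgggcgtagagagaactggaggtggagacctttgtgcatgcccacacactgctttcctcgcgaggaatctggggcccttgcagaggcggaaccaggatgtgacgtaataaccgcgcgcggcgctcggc
SDHD: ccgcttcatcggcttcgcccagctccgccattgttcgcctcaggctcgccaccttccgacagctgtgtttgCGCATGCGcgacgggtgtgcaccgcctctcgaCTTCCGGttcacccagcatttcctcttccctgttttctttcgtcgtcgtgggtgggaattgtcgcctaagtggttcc
COX6A1: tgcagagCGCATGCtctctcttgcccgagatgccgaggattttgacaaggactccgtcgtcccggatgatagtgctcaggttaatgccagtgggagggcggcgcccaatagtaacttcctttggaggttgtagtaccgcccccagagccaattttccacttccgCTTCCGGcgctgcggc
COX5B holds an NRF-1 core 136 bases and an ETS core 37 bases before its start, and COX7B, COX7C and NDUFB6 hold neither core, letter for letter, in 250 bases. Of the held genes not shown, NDUFA5 holds the NRF-1 core, the nearest 156 bases before a start, and no ETS core. COX7A2, NDUFA2 and NDUFA9 hold neither. In SDHD 2 NRF-1 cores, 1 on each strand, overlap, and the nearer begins 108 bases before the start. Of the 66 members with a promoter in the table, 12 held the NRF-1 core, 17 the ETS core and 24 the CCAAT box, that is 18.2%, 25.8% and 36.4%. Over all 27305 genes of that table the shares were 4.16%, 10.24% and 37.0%. Among the 18 matched members that rose, 5 held the NRF-1 core and 6 the ETS core, and among the 48 that did not, 7 and 11 did. A match is a run of letters and was not measured as bound.

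The other rises of complex I were NDUFB1, NDUFA11, NDUFA6 and NDUFV2, which made 8 of 33 in all. Their log2 changes were 0.20, 0.16, 0.15 and 0.14, with adjusted p from 0.025 to 0.040, and none of these 4 passed under the 3 scalings that matched bright genes. NDUFV2, which carries an iron-sulfur cluster, is the only catalytic core subunit among the 8. The other measured core subunits NDUFS1, NDUFS3, NDUFS7, NDUFS8 and NDUFV1 did not pass, with log2 changes of 0.04, 0.09, -0.11, -0.06 and -0.04. NDUFS7 was the lowest of the complex. The median of complex I was 0.089, with 24 of 33 above 0.

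Of complex II, SDHD was the 1 of 3 that rose. SDHD anchors the enzyme in the inner membrane together with SDHC, and SDHA carries the flavin that oxidises succinate. SDHD ranged from 9.56 to 9.64 (median 9.61) with the scramble siRNA and from 9.63 to 9.85 (median 9.75) with the OLR1 siRNA, so that the ranges overlapped. The rise was 0.14 ± 0.042 (SE; adjusted p = 0.025) and passed under 1 of the 4 other scalings. SDHA and SDHC had log2 changes of 0.10 and 0.08 and did not pass, and a second probe set of SDHC, not kept, had 0.23 (adjusted p = 0.051).

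Of complex III, UQCRH, the hinge protein that helps cytochrome c dock, was the 1 of 8 that rose. It read 6.63, 6.74 and 6.69 in scramble untreated, 6.59, 6.46 and 6.36 in scramble UV-PAPC, 6.53, 6.84 and 6.60 in OLR1 untreated and 6.91, 6.82 and 6.87 in OLR1 UV-PAPC cells. The siRNAs overlapped in untreated cells and not with UV-PAPC, and the averaged rise of 0.18 ± 0.059 (SE; adjusted p = 0.036) passed under 3 of the 4 other scalings. All 8 members were above 0, with a median of 0.107, from 0.03 in the pseudogene-named UQCRBP1 to UQCRH. The core proteins UQCRC1 and UQCRC2 had log2 changes of 0.11 and 0.10 and did not pass. An entry that names UQCRH together with UQCRHL and GNA13, fitted with all 33297 entries, had 0.15 and did not pass either.

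Complex IV had 6 rises among 17, the 4 above with COX6A1 and COX8A. The log2 changes of COX6A1 and COX8A were 0.15 each and passed under 1 of the 4 other scalings. With the 12 arrays left out in turn, COX6A1 passed with 2 of them and COX8A with 3. In a fit over all 33297 entries neither probe set of COX6A1 passed, at 0.15 (kept) and 0.16. The median of complex IV was 0.070, with 6 tissue-restricted forms among its members. COX4I2, COX6A2, COX6B2, COX7A1, COX7B2 and COX8C are forms of lung, muscle or testis, and their log2 changes ran from -0.11 to 0.01, with none past the threshold. Of their widely expressed counterparts, COX6A1, COX7A2, COX7B and COX8A rose, and COX4I1 and COX6B1 had log2 changes of 0.04 and 0.12. Marker lists of muscle and germ cells had low means on every array, at log2 signals of 5.37 to 5.58 and 3.93 to 4.18. Some muscle genes read higher, namely TNNT3 (7.25 to 7.69), TNNT1 (6.82 to 7.31), TNNI2 (6.75 to 7.09) and ACTA1 (6.58 to 7.02).

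Complex V had 3 rises and the only fall among 19. ATP5MJ, ATP5PD and ATP5MF, small proteins of the membrane part and the peripheral stalk, had log2 changes of 0.20, 0.17 and 0.16 (adjusted p = 0.032, 0.028 and 0.047), which passed under 1 of the 4 other scalings. ATP5F1D, the delta subunit of the central stalk, read 8.64, 8.63 and 8.66 in scramble untreated and 8.63, 8.69 and 8.72 in scramble UV-PAPC cells. It read 8.58, 8.45 and 8.50 in OLR1 untreated and 8.60, 8.45 and 8.53 in OLR1 UV-PAPC cells. All 6 OLR1 siRNA arrays lay below all 6 scramble arrays, and the fall of 0.15 ± 0.046 on the log2 scale (SE; adjusted p = 0.032) passed under 3 of the 4 other scalings. It passed with 4 of the 12 arrays left out in turn, which were replicate 1 of each group. The catalytic subunits ATP5F1A and ATP5F1B had log2 changes of 0.12 and 0.11 and the inhibitor ATP5IF1 of -0.07, none past the threshold.

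**Figure D3:**
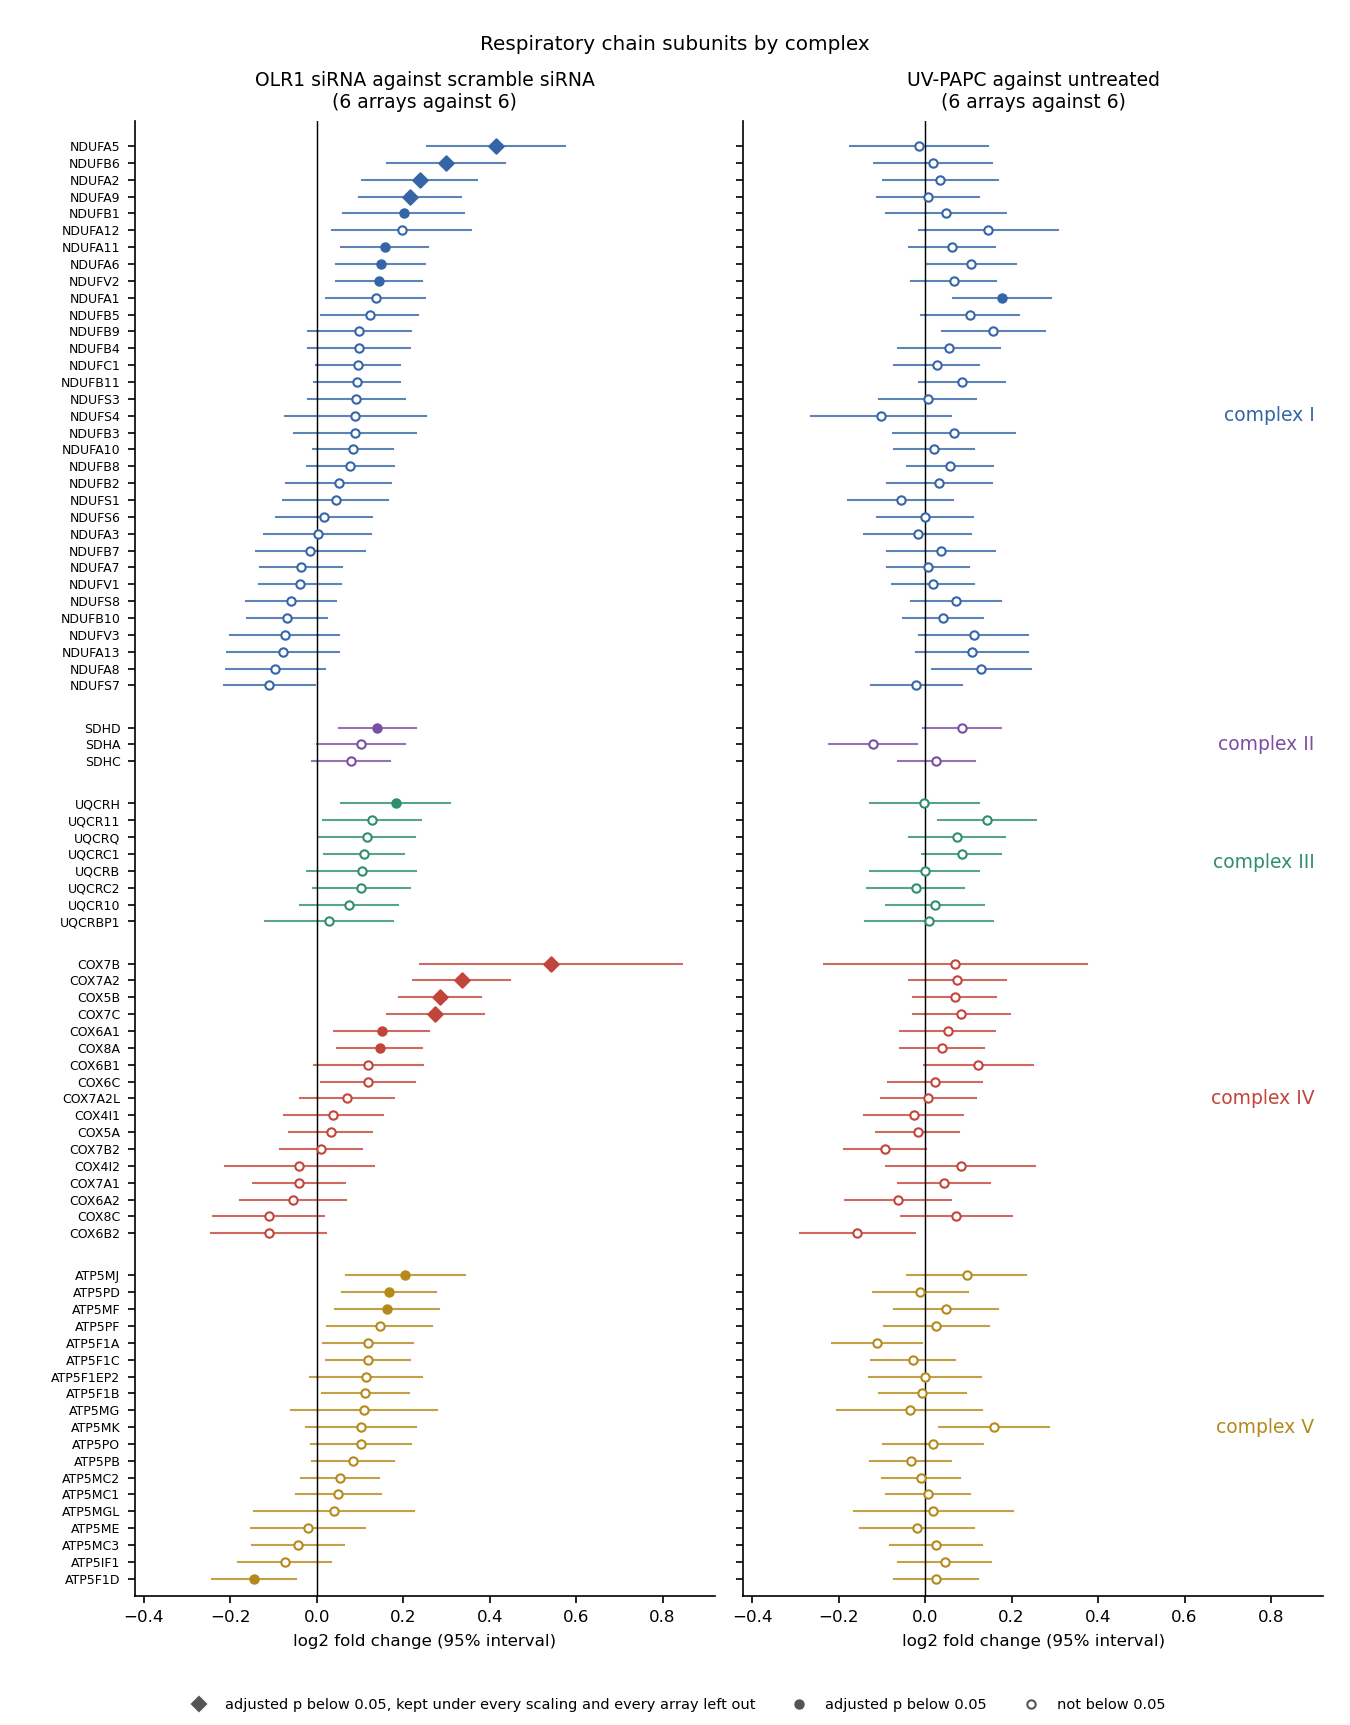
Log2 fold change (points) and 95% interval (lines) of each of the 80 subunits, grouped by complex, for the OLR1 siRNA averaged over treatments (left) and UV-PAPC averaged over siRNAs (right). Filled symbols have an adjusted p below 0.05: 20 on the left, of which the 8 diamonds held under every scaling and with any 1 array left out, and 1, NDUFA1, on the right.

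Between complexes the medians with the OLR1 siRNA lay within 0.070 to 0.107, and cyclic loess brought them to 0.014 in complex IV, 0.022 in complex II, 0.038 in complex V, 0.039 in complex I and 0.074 in complex III. Each complex kept a median above 0 under all 4 other scalings. The order of the complexes depended on the genes kept: among genes above the median signal complex IV was highest, at 0.133, and with a gene's probe sets averaged complex II was, at 0.157. Averaged over each complex, the 6 OLR1 siRNA arrays lay above the 6 scramble arrays in complex II (9.842 to 9.939 against 9.726 to 9.83) and complex IV (7.597 to 7.679 against 7.48 to 7.582). In complexes I, III and V the ranges overlapped. After cyclic loess the ranges overlapped in all 5. In complex IV only scramble UV-PAPC replicate 3 (7.634) then reached the OLR1 siRNA range, which began at 7.589. Its group means after loess were 7.533 (untreated) and 7.573 (UV-PAPC) with the scramble siRNA, and 7.618 and 7.645 with the OLR1 siRNA. The mean of all 80 members ran from 8.095 to 8.21 with the scramble siRNA and from 8.209 to 8.321 with the OLR1 siRNA as deposited, and from 8.102 to 8.27 and 8.201 to 8.284 after loess. The SD of that mean within a group was 0.017 to 0.059 as deposited (n = 3). The median signal of the brightest bin of genes was lowest in scramble UV-PAPC replicate 3 (8.627) and highest in OLR1 UV-PAPC replicate 1 (8.812), and its part in the rises was not tested beyond these scalings.

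**Figure D4:**
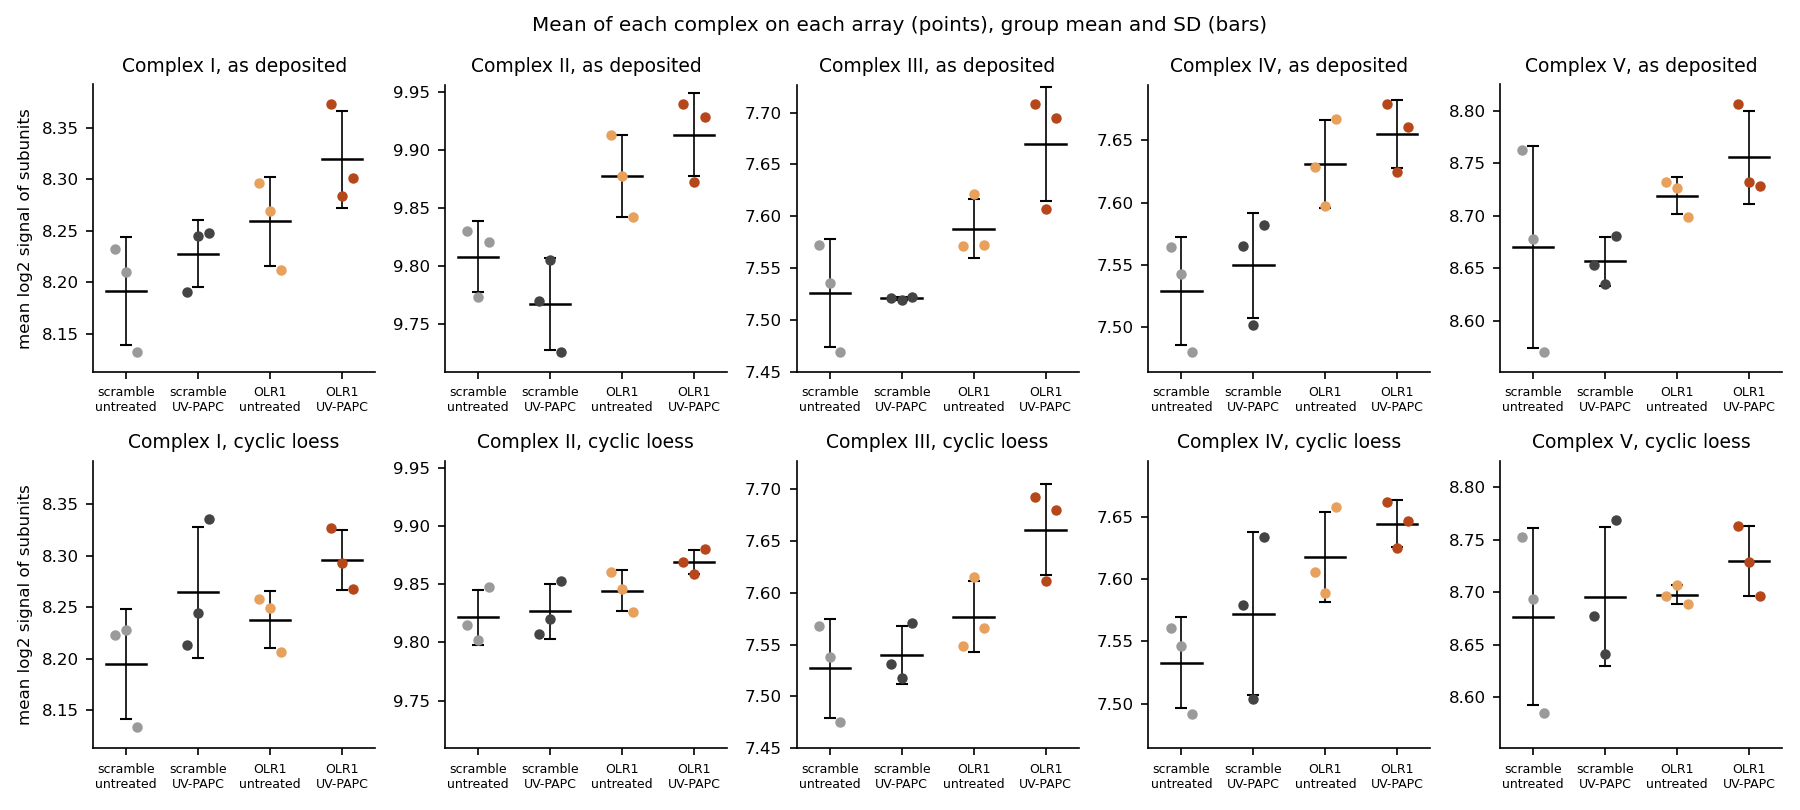
Mean log2 signal of the subunits of each complex (vertical axes, which differ between complexes) on each array (points), with group mean (line) and SD (bars), as deposited (top) and after cyclic loess between arrays (bottom). In complexes II and IV the ranges of the siRNAs are apart as deposited and overlap after loess, in complex IV only through scramble UV-PAPC replicate 3. The OLR1 UV-PAPC group has the highest mean in each of the 5 complexes after loess.

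The count of 20 calls depended on single arrays. It was 9 without OLR1 UV-PAPC replicate 1 and 10 without scramble untreated replicate 3. It was 11 without scramble untreated replicate 2, scramble UV-PAPC replicate 2, OLR1 untreated replicate 1 or OLR1 untreated replicate 2, and 13 without scramble UV-PAPC replicate 1.

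Taken in each treatment alone, with 3 arrays against 3 in place of 6 against 6, fewer subunits passed with the OLR1 siRNA. The median log2 change of the subunits was 0.074 in untreated and 0.115 in UV-PAPC cells, against 0.097 in the average. In untreated cells 2 of 80 rose, COX5B by 0.25 ± 0.063 (SE; adjusted p = 0.018) and NDUFA5 by 0.48 ± 0.11 (SE; adjusted p = 0.0082). That is 2.5% of subunits against 5.29% of all genes, and both rose under every scaling, as 4.32% of all genes did. COX5B did not pass without scramble untreated replicate 3, OLR1 untreated replicate 1 or OLR1 untreated replicate 3, and the first and second of these left 1 call. In UV-PAPC cells 10 of 80 rose, which is 12.5% against 7.94% of all genes. They were COX7B (0.74), COX7A2 (0.44), UQCRH (0.39), NDUFB6 (0.37), NDUFA5 (0.35), COX5B (0.32), COX7C (0.30), NDUFA2 (0.28), NDUFA9 (0.25) and SDHD (0.19), with adjusted p from 0.0013 to 0.049. COX5B, COX7A2, COX7B and UQCRH rose under every scaling, 5% of members against 4.41% of all genes. The entry that names UQCRH together with UQCRHL and GNA13 had 0.16 in UV-PAPC cells and did not pass. With the brightest bin centred 4 rose and 3 fell, and with quantile normalization 5 rose and 1 fell, and with cyclic loess 6 and 1. The count of 10 was 3 without OLR1 UV-PAPC replicate 1, 4 without scramble UV-PAPC replicate 1 and 5 without OLR1 UV-PAPC replicate 3. It was 6 without scramble untreated replicate 2, scramble UV-PAPC replicate 3 or OLR1 untreated replicate 1. These 2 comparisons use different arrays, and whether they differ is the test of the difference given below.

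Few subunits passed the test with UV-PAPC. With the scramble siRNA 0 of 80 passed the limma test (3 had an unadjusted p under 0.05) where 7.31% of all genes did. With the OLR1 siRNA 0 of 80 passed (7 unadjusted) where 6.71% of all genes did. Averaged over both siRNAs 1 of 80 passed where 14.0% of all genes did. A test not passed does not show that a gene was unchanged. In this average 56 of 80 subunits (70.0%) were above 0, against 47.7% of all genes, and 60 to 68 were under the 4 other scalings. These comparisons use the same 12 arrays as the comparisons of siRNAs.

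The 1 subunit that rose with UV-PAPC was NDUFA1, a small membrane subunit needed for the assembly of complex I. It read 8.17, 8.39 and 8.24 in scramble untreated and 8.44, 8.47 and 8.40 in scramble UV-PAPC cells. It read 8.41, 8.43 and 8.34 in OLR1 untreated and 8.71, 8.49 and 8.54 in OLR1 UV-PAPC cells. Within each siRNA the 3 treated arrays lay above the 3 untreated ones, by 0.17 and 0.19, and the averaged rise was 0.18 ± 0.054 (SE; 1.13-fold, adjusted p = 0.035). It passed under all 4 other scalings and with 4 of the 12 arrays left out in turn. The arrays whose removal ended the call were replicates 1 and 3 of scramble untreated, 1 and 2 of scramble UV-PAPC, 1, 2 and 3 of OLR1 untreated and 1 of OLR1 UV-PAPC.

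The remaining 79 subunits did not pass, and their log2 changes lay between -0.16 and 0.16. ATP5MK was highest in complex V at 0.16 and UQCR11 in complex III at 0.14. At the other end COX6B2 had -0.16, SDHA -0.12, ATP5F1A -0.11 and NDUFS4 -0.10, with UQCRC2 lowest in complex III at -0.02. COX6B1 was highest in complex IV at 0.12 and SDHD highest in complex II at 0.09. The medians were 0.042 in complex I, 0.026 in complex II, 0.016 in complex III, 0.043 in complex IV and 0.007 in complex V, against -0.006 over all genes. These medians moved with single arrays. That of complex V was -0.020 without scramble untreated replicate 3, -0.0053 without OLR1 UV-PAPC replicate 1, -0.0023 without OLR1 untreated replicate 3 and 0.025 without scramble untreated replicate 1, and that of complex III was 0.0042 and 0.050 without the second and the last of these. With the brightest bin centred, complex V was at 0.028. In complex I 27 of 33 members were above 0, and in complex V 10 of 19. The 8 subunits that held with the OLR1 siRNA had UV-PAPC changes between -0.01 in NDUFA5 and 0.08 in COX7C, with 95% intervals of -0.17 to 0.15 and -0.03 to 0.20.

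Whether the UV-PAPC response differed between siRNAs was tested as a difference of differences, and 0 of 80 subunits and 0 of 18417 genes (0.0%) passed the limma test, with 3 subunits and 1004 genes at an unadjusted p under 0.05. UQCRH had the highest difference, 0.42 (95% interval 0.17 to 0.67, adjusted p = 0.86). Its log2 change with UV-PAPC was -0.21 with the scramble siRNA and 0.21 with the OLR1 siRNA. The entry that names UQCRH together with UQCRHL and GNA13 did not share this, with changes of 0.11 and 0.13. The difference of that entry was 0.02 (95% interval -0.22 to 0.26). NDUFA8, a complex I accessory subunit singled out after its values were seen, had 7.90, 7.95 and 7.75 in OLR1 untreated cells, below the other 3 groups, which ran from 7.98 to 8.17. Its difference was 0.22 (95% interval -0.01 to 0.44) and did not pass.

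Genes that build or serve the chain were counted from lists of general knowledge, averaged over treatments for the OLR1 siRNA. Assembly factors of complex I had 2 rises among 18, TMEM126A (0.28) and TMEM126B (0.24), and those of complexes II and III 1 among 9, SDHAF2 (0.22), which adds flavin to SDHA. Assembly factors of complex IV had 4 rises and 2 falls among 22. COA5 (0.35), LRPPRC (0.21), which stabilises mitochondrial messenger RNA, and COA6 (0.18) rose, while the copper chaperones SCO1 (-0.52) and SCO2 (-0.27) fell. None of 6 complex V factors passed. Among 15 subunits and carriers outside the name pattern 3 rose, with CYCS, which is cytochrome c, at 0.39 (adjusted p = 9.17e-05) and the ubiquinone synthesis genes COQ9 and COQ7 at 0.23 and 0.19.

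Of 22 regulators of mitochondrial gene expression 3 rose and 2 fell. GABPB1, the partner subunit of GABP, rose by 0.35 (adjusted p = 0.00092), NFE2L2 by 0.27 and MTERF1 by 0.25, and SP1 (-0.26) and the mitochondrial RNA polymerase POLRMT (-0.21) fell. Mitochondrial ribosomal proteins had 16 rises and 3 falls among 73, led by MRPL50 (0.40) and MRPL44 (0.38), and 8 of those rises passed under every scaling. In the citric acid cycle 3 of 16 rose, IDH2 (0.26), DLST (0.16) and MDH2 (0.13). Chaperones and proteases had 4 rises, with the protease OMA1 at 0.42 and HSPE1 at 0.29, and 1 fall, HSPA9 (-0.28), among 17. None of 10 carriers, uncoupling and supercomplex proteins passed. The backgrounds are again 12.9% up and 10.2% down. Under every scaling 8.36% of all genes rose, and the rises were fewer in some lists. Left were 8 of the 16 mitochondrial ribosomal proteins, 2 of the 4 chaperones and proteases and 3 of the 4 complex IV factors. Of the subunits and carriers outside the name pattern 2 of the 3 were left, as was 1 of the 3 citric acid cycle genes. Among the named genes COQ7, DLST, MDH2 and POLRMT were lost in this way. The rises of complex I factors, of complex II and III factors and of regulators all passed under every scaling.

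With UV-PAPC, averaged over siRNAs, the background was 1096 rises and 1478 falls among all 18417 genes, 14.0% in both directions together. Calls in the same lists were as follows. The chaperonins HSPD1 and HSPE1, which fold imported matrix proteins, rose by 0.60 (adjusted p = 2.87e-07) and 0.51, and HSPA9 by 0.20, 3 of 17 in that list. Of 73 mitochondrial ribosomal proteins 4 rose, with MRPL18 at 0.74. COA6 (0.34) and COA8 (0.21) rose among 22 complex IV factors and NDUFAF7 (0.24) and NDUFAF2 (0.19) among 18 complex I factors, while TTC19 (-0.28), which serves complex III, fell. COQ9 (-0.24) and COQ7 (-0.21) fell, and GABPB1 (0.30) and TWNK (0.22) rose as CREB1 (-0.27) fell. None of the citric acid cycle, complex V factor or carrier genes passed.

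Some members rest on uncertain probe sets. In all, 7 members had more than 1, and where the second also passed it moved the same way. The second probe set of SDHD read 7.08 to 7.39 on the scramble arrays and 7.27 to 7.92 on the OLR1 siRNA arrays, a log2 change of 0.31 with the OLR1 siRNA against 0.14 for the one kept. Both probe sets of NDUFB4 hold the same values, and those of NDUFS4 had 0.09 (kept) and -0.06, neither past the threshold. Subunit genes are known to have near-identical processed pseudogenes, and no source used here says whether a probe set also reads these. UQCRBP1 and ATP5F1EP2 carry pseudogene names, and their log2 changes of 0.03 and 0.11 did not pass. ATP5F1E, NDUFC2, NDUFS5 and UQCRHL occur only in entries with several symbols, so they are not members. Those entries had log2 changes with the OLR1 siRNA of 0.07, 0.11, 0.02 and 0.15, and none passed. The entry of UQCRHL also names UQCRH. Mitochondrially encoded subunits were searched for by symbol, none was found among the entries with 1 gene symbol, and so they were not analysed.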

How the data were processed

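RNA of SZ95 sebocytes was hybridised to 12 Affymetrix HuGene 1.0 ST arrays, with 100 ng per sample labelled with the WT PLUS kit, per the labels' protocols. The authors deposited log2 signals, 1 per probe set and array, and the submitters' processing notes name RMA and Affymetrix Expression Console 1.3.1.187. RMA compresses large fold changes. Its settings, and how long cells were exposed to UV-PAPC, no source used here gives. Of 33297 entries, 19460 had 1 gene symbol, 1754 several and 12083 none, and 19429 of the first kind matched a RefSeq gene number. The brightest probe set of each gene was kept.

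Group means of all 12 arrays were fitted on 18417 genes with limma 3.58.1 (R 4.3.3), which had 8 residual degrees of freedom and a prior of 7.66. Moderated two-sided statistics for 7 comparisons were adjusted by Benjamini-Hochberg over all genes, with a threshold of 0.05. The fit was tested on simulated data. Members and lists were chosen with earlier results of these data known. Named were OLR1, members past the threshold in any comparison, the highest and lowest member of each complex in the averaged comparisons, tissue-restricted or pseudogene-named members with their counterparts, and up to 5 genes a list past the threshold. The other 4 scalings, other filters and moderation, a replicate block and arrays left out were the alternatives. Leaving out 2 arrays together was chosen after seeing the data. Promoters of 66 of 80 members came from RefSeq (GRCh38.p14). Figures used matplotlib 3.10.9 in Python 3.11.15. The number of arrays limits the precision.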

Additional observations from a re-analysis of the deposited data

Results flagged for a closer look

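Probe sets that were not kept for their gene passed the threshold in 5 cases, in a fit over all 33297 entries. The second probe set of SDHD had a log2 change with the OLR1 siRNA of 0.556 in UV-PAPC cells and 0.314 averaged over treatments, where the one kept had 0.14 in the average. That of ATP5MK had 0.261 in UV-PAPC cells and 0.182 averaged, where the one kept had 0.10 and did not pass. The second probe set of NDUFV2 had 0.204 averaged, where the one kept had 0.14. No source used here says which of each pair lies within the gene itself.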

How the results depend on the processing

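Counts are of the 80 subunits past an adjusted p of 0.05 and medians are their log2 changes. For the OLR1 siRNA averaged over treatments, 11 passed (8 rises and 3 falls) with arrays centred on the brightest of 4 bins of genes, and 11 (9 and 2) with quantile normalization and with cyclic loess. The median of 0.097 became 0.038, 0.046 and 0.038, and without both extreme arrays 8 passed. The falls besides ATP5F1D were NDUFA8 and NDUFS7 in the first scaling and NDUFS8 in the other 2. In UV-PAPC cells the count of 10 became 16 among genes above the median signal, 6 with quantile normalization, 6 on the arrays of the contrast alone and 4 without both arrays. The median of 0.115 became 0.028, 0.036 and 0.03 under the same 3 scalings. In untreated cells the count of 2 became 5 with trend and robust moderation, 4 with array weights, 7 among brighter genes and 4 without both arrays. For UV-PAPC with the OLR1 siRNA, 1 passed instead of 0 with trend and robust moderation, brighter genes, the mean of probe sets, quantile normalization and loess. Averaged over siRNAs, 4 passed with trend and robust moderation and with brighter genes, 2 with quantile normalization and loess, and 0 without both arrays. The median for UV-PAPC with the scramble siRNA (0.017, 50 of 80 positive) became 0.066 with the brightest bin centred, -0.015 (31 positive) without scramble untreated replicate 3 and 0.041 without replicate 1, and that of the difference of responses (0.033) became -0.024, -0.016 and -0.012 under the 3 scalings. Leaving out 1 array gave 9 to 24 calls for the averaged OLR1 siRNA effect (medians 0.074 to 0.111), 3 to 12 in UV-PAPC cells and 1 to 3 in untreated cells (medians 0.03 to 0.101). It gave 0 to 2 for the averaged UV-PAPC response, 0 to 1 with the OLR1 siRNA and 0 with the scramble siRNA. Deviations of same-numbered arrays correlated at -0.22 to 0.26, and 6 of 18 pairs exceeded 0.1. Differently numbered arrays were not compared, so these values do not decide whether replicate numbers pair the samples. With the replicate block 16 passed for the averaged OLR1 siRNA effect, 7 in UV-PAPC cells and 2 for the averaged UV-PAPC response. Of 738 alternatives run for single subunits, 512 kept their call, 226 lost it and 0 turned direction. The cause of these shifts was not tested.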
